A study of Drosophila melanogaster with 2 samples.

Results

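The 8 genes described here form the core feedback loops of the Drosophila circadian clock: Clk, cyc, per, tim, vri, Pdp1, cwo and dco. They were taken by symbol from Ensembl release 115 on dm6 and are 8 of 13945 protein-coding genes. The measurement was chromatin immunoprecipitation with sequencing (ChIP-seq) of Cnc, the fly relative of mammalian Nrf2. All material came from 1 group, a transgenic line that stably carries Cnc with eGFP at its C terminus, and the antibody was raised against GFP. Whole wandering larvae of the third instar, males and females together, were pooled, their age is given as unknown, and the labels give no time of day for collection. The labels number 2 biological replicates, and each replicate's library is numbered as a single technical replicate. The labels name an experiment as a possible control, and it was not analysed here. A whole larva mixes all its tissues, so fewer cells with Cnc at a site and less Cnc per cell cannot be told apart.

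In the fly clock, the proteins Clock (CLK) and Cycle (CYC) bind DNA as a pair at E-boxes and activate the other loop genes, including period and timeless. PER and TIM then return to the nucleus and inhibit that pair, while the kinase encoded by dco (also called doubletime) phosphorylates PER and sets the pace. In the interlocked loop, VRI represses and PDP1 activates transcription of Clk through a shared kind of site, and CWO competes at E-boxes. The loops run in brain clock neurons and also in peripheral tissues, and several of these genes have further roles in development.

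The authors deposited peak lists, and these hold 6153 reproducible peaks, 30000 peaks called on the pooled replicates and 30000 peaks for each replicate. The reproducible peaks are the 6153 highest of the pooled list. The signal value of a peak is the authors' own score, and the labels do not state what it measures. Peaks are called high or low by this value. In the reproducible list it ran between 206 and 7349, with a median of 353. Each list has its own scale, with a highest signal of 7349 in the pooled list, 5249 in replicate 1 and 3096 in replicate 2. Values of a peak in different lists are therefore given side by side as a description, and how close the replicates are is not read from them. Read depth behind a peak is unknown from these lists. A summit is the highest point of a peak, and it was counted for a gene when it lay inside the gene or within 5 kb of it.

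Reproducible summits were present at 5 of the 8 clock genes and were concentrated in vri. The list had 12 summits at vri, 5 at Pdp1, 4 at dco, 2 at cyc and 1 at cwo, and 0 at Clk, per and tim. The 5 genes are 62.5% of the clock genes, and 56.5% of all protein-coding genes had such a summit. Within 1000 bp of an annotated transcript start, which is called the promoter below, 3 of the 8 had a summit (vri, Pdp1 and dco), or 37.5%. The share over all protein-coding genes was 31.9%. Both shares of the clock genes were near those of all genes, so presence of a peak does not set the clock genes apart. The 24 summits over 214 kb of clock genes and flanks make 0.112 per kb, against 0.0527 per kb over all protein-coding genes with the same flanks. The 12 at vri account for the largest part of these 24.

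**Figure D1:**
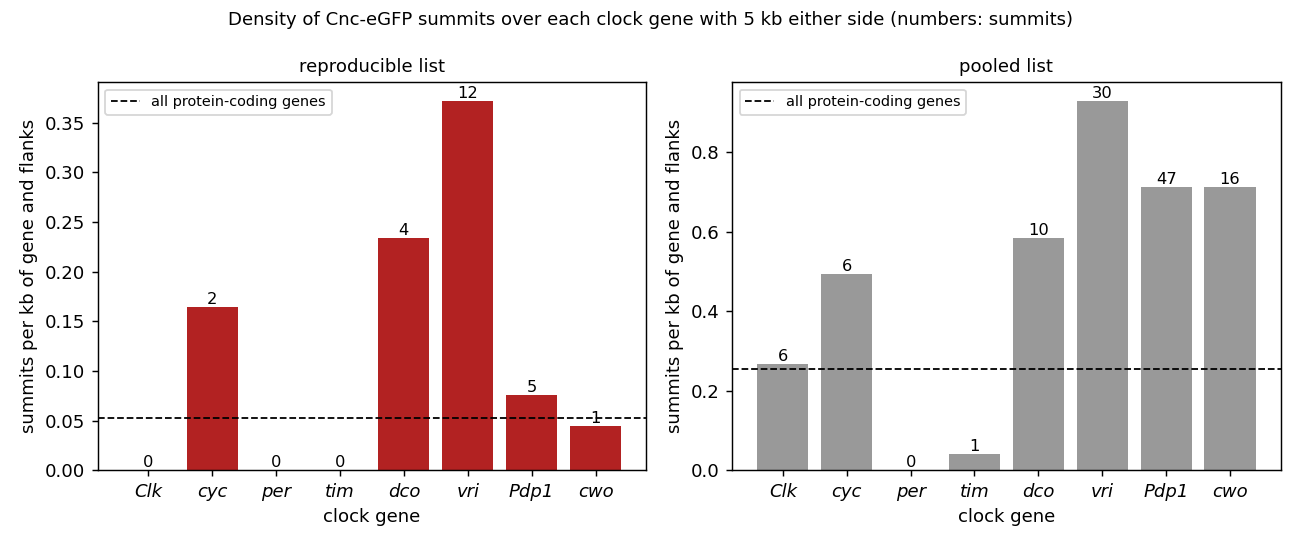
Reproducible (left) and pooled (right) Cnc-eGFP summits per kb of each clock gene with 5 kb either side; the number on each bar is its count of summits and the dashed line is the density over all protein-coding genes. The bar of vri is the tallest in both lists, and per has 0 summits in both.

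The sequences below are shown because they lie under the strongest peaks inside a clock gene: the highest summits of vri, dco and cwo, and the next summit of vri, which is almost as high. They are 101 bases of dm6 on the + strand, centred on the summit, from chr2L:5292748-5292848, chr2L:5293279-5293379, chr3R:31059157-31059257 and chr3R:10391057-10391157.
vri peak 1: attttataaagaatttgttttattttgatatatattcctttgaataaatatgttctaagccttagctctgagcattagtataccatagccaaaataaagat
vri peak 2: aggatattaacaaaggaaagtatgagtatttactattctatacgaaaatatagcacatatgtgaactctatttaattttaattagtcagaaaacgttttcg
dco peak 1: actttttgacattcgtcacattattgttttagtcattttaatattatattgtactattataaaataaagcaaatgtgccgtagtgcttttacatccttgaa
cwo peak 1: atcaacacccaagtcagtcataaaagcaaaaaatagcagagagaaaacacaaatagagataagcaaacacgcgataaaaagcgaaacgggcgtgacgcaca
All of these windows lie in introns, and none of them holds any of the 3 motifs searched, which are described with the motif counts.

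Clk encodes the bHLH-PAS activator of the loop and lies on chromosome 3L at 7763233 to 7775603 on the minus strand (FBgn0023076). It had 0 reproducible summits, but 6 in the pooled list, 5 in the list of replicate 1 and 10 in that of replicate 2. The pooled signal values ran between 63 and 124, and a peak of both replicates overlapped 1 of the 6 pooled peaks. The highest had a signal of 124 at 7777691 to 7778054, upstream of the gene, and it was overlapped only by a replicate 2 peak of 76.6. The signal at Clk was thus low and mostly without a listed peak in both replicates. The pooled list ends at a signal of 62.4, and those of replicates 1 and 2 at 25.1 and 31.4. A weaker peak would not be listed. The nearest reproducible summit lay 6831 bp upstream, outside the 5 kb limit, with a signal of 306.

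cyc encodes the partner of CLK and is a short gene on chromosome 3L, at 19813770 to 19815938 on the minus strand (FBgn0023094). Its 2 reproducible summits lay upstream, 2017 and 2224 bp from the gene, and none lay inside it. The peak at 19817730 to 19818099 had a pooled signal of 1099, rank 475 of the list, with 591 in replicate 1 and 481 in replicate 2. Its summit was 12 bp from the start of Fibp. The peak at 19817980 to 19818343 had a pooled signal of 256 and its summit was 12 bp from the start of Deaf1, a transcription factor gene. The same peak in each replicate overlapped both, so these are not separate measurements. When each summit was given only to the gene of the nearest protein-coding start, cyc had 0. In the 6153 highest peaks of either replicate taken alone, cyc had 1 summit. At its own start, cyc had 3 pooled summits within 1000 bp, all below the reproducible list. The highest had a pooled signal of 139 at +4 in the 5′ UTR, with 86.4 in replicate 1 and 59.8 in replicate 2, and the next had 112 at +269. Both were overlapped by peaks of both replicates, but by the same peak in replicate 1, so they are not separate measurements there.

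per encodes the inhibitor of CLK and CYC whose accumulation times the loop, and lies on chromosome X at 2685580 to 2692780 on the plus strand (FBgn0003068). It had 0 summits within 5 kb in the reproducible, pooled, replicate 1 and replicate 2 lists. Of all protein-coding genes, 2192 (15.7%) likewise had none in any of the 4 lists. The nearest pooled summit upstream lay 6687 bp away with a signal of 90.2, and its nearest coding gene is HLH3B. The nearest reproducible summit lay 11089 bp downstream. That peak, at 2703680 to 2704112, had a signal of 7252, rank 2 of the whole list, and its summit lay 17 bp from the start of Ugalt, a nucleotide sugar transporter gene. One of the highest peaks of the list therefore stood close to a gene that had none.

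tim encodes the partner of PER, which is degraded after light exposure, and lies on chromosome 2L at 3493986 to 3508119 on the minus strand (FBgn0014396). It had 0 reproducible summits, 1 in the pooled list, 1 in replicate 1 and 2 in replicate 2. The pooled peak, at 3489886 to 3490249 downstream of the gene, had a signal of 84 and was overlapped only by a replicate 1 peak of 68.8. No peak at tim was shared by both replicates. Its nearest reproducible summit lay 15811 bp downstream and 259 bp from the start of Thor, the gene of a translation inhibitor.

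dco encodes the casein kinase that phosphorylates PER, and is known outside the clock for growth of imaginal discs. It lies on chromosome 3R at 31054085 to 31061210 on the minus strand (FBgn0002413). Its 4 reproducible summits put it with 1162 protein-coding genes (8.33%) that had as many or more. The highest peak, at 31059066 to 31059374, had a pooled signal of 764, rank 918, with 449 in replicate 1 and 326 in replicate 2, and its summit lay in an intron at +1566 of dco-RE. A promoter peak at 31061243 to 31061606 had a pooled signal of 265, with 184 in replicate 1 and 90.4 in replicate 2. Its summit lay at -215 of the outermost start. The strongest signal at dco was thus inside the gene and the one before its start was lower. A further intronic peak, at +886 of dco-RE, had 246 in the pooled list, 113 in replicate 1 and 91.8 in replicate 2. It lies within 1000 bp of that start and so also counts as a promoter peak. The upstream peak at -1621 had 249 in the pooled list and 149 in replicate 2, and no replicate 1 peak overlapped it. Without replicate 1, in the 6153 highest peaks of replicate 2, dco had 2 summits and none in its promoter. Below the reproducible list dco had 6 further pooled summits, 4 of them overlapped in both replicates, the highest with signals of 172 and 143. Among these 4, the pooled peaks of 172 and 74 were overlapped by the same peak in each replicate. That of 123 had the same replicate peaks as the promoter peak of 265, so the 4 are not separate measurements.

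vri encodes the bZIP repressor of Clk and was first known for a role in embryonic development. It lies on chromosome 2L at 5288944 to 5311223 on the plus strand (FBgn0016076) and has 5 transcripts with 3 distinct starts. Its 12 reproducible summits fell into 11 separate regions once overlapping peaks were merged, and 10 summits lay inside the gene, all in introns. Only 16 protein-coding genes (0.115%) had 12 or more. Those 16 had a median length of 65209 bp and vri is 22280 bp long, with 1 of the 16 shorter (Irk1, 17326 bp). The median length of all protein-coding genes was 2166 bp. Of the 910 protein-coding genes longer than vri, 14 had as many summits or more. The number of summits at vri was therefore high among genes, also among those longer than it.

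The highest vri peaks stood side by side in the intron that follows the vri-RE start. The peak at 5292611 to 5292954 had a pooled signal of 1427, rank 260, with 769.6 in replicate 1 and 754 in replicate 2, and its summit lay at +3854 of vri-RE. The peak at 5293187 to 5293530 had a pooled signal of 1408, rank 266, with 658 in replicate 1 and 755 in replicate 2, and its summit lay at +4385. The summits were 531 bp apart, and both replicates held both peaks among their 6153 highest. The next peak by signal, at 5294402 to 5294765, had 605 in the pooled list, 372 in replicate 1 and 264 in replicate 2. Another peak, at 5287663 to 5287766, lay upstream at -1262 and had 509.9 in the pooled list, 293 in replicate 1 and 212 in replicate 2. The non-coding genes lncRNA:CR44743 and lncRNA:CR44742 start within 1000 bp of it, so it cannot be assigned to vri alone. Of the other 8 peaks, the pooled signal ran between 271 and 433.

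Each of the 3 starts of vri had a reproducible summit within 1000 bp. At the vri-RE start the summit lay at -481 with a pooled signal of 274, and the peak had 149 in replicate 1 and 123 in replicate 2. The same non-coding genes start within 1000 bp of this summit too. At the vri-RC start a summit lay at -190 with a pooled signal of 387, and the peak had 197 in replicate 1 and 184 in replicate 2. At the start shared by vri-RA, vri-RD and vri-RF the highest was at +855 with a pooled signal of 433, and the peak had 143 in replicate 1, rank 4259 of that list, and 327 in replicate 2, rank 1043. The replicate 2 peak also overlapped the neighbouring reproducible peak of 309.6, which no replicate 1 peak overlapped. All 3 promoter signals were lower than those of the pair of intronic peaks. Below the reproducible list vri had 18 further pooled summits, 9 of them overlapped in both replicates, the highest with signals of 195 and 166. Among these 9, the peaks of 142 and 65.6 shared their peak in each replicate, as did those of 117 and 71.5. That of 145 had the same replicate peaks as the reproducible peak of 509.9. The peak of 78.9 shared its replicate 2 peak with the reproducible peak of 433, so the 9 are not separate measurements.

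Pdp1 encodes a PAR-domain bZIP activator of Clk that is also made in muscle and fat body. It is a long gene, 55912 bp on chromosome 3L at 7811458 to 7867369 on the minus strand (FBgn0016694), with 13 transcripts and 4 distinct starts. Its 5 reproducible summits were all weaker than the list median of 353, and 536 protein-coding genes (3.84%) had as many or more. The highest peak, at 7870000 to 7870363, had 343 in the pooled list, 151 in replicate 1 and 176 in replicate 2, and its summit lay at -2813, nearer to the start of CG32365. A pair of peaks at 7855700 to 7856063 (pooled signal 268) and 7855919 to 7856282 (pooled signal 208) lay before the start that 7 transcripts share, with summits at -334 and -553. A single peak in each replicate, of 151 in replicate 1 and 116 in replicate 2, overlapped both. The intronic peak at +3514 had 257 in the pooled list, 130.1 in replicate 1 and 149 in replicate 2. The peak downstream of the gene, had 256 in the pooled list, 171 in replicate 1 and 123 in replicate 2, and lay 243 bp from the start of CG32369. Only 1 of the 4 starts had a reproducible summit in its promoter.

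Below the reproducible list, Pdp1, the longest of the clock genes, had 42 pooled summits, and 29 of them were overlapped by peaks of both replicates. The highest had signals of 185 and 181. That of 185 had the same peak in each replicate as the reproducible intronic peak of 257. Some others shared their replicate peaks with a neighbour, such as those of 181 and 85.4, so the 29 are not separate measurements. With the 5 reproducible ones, the 42 give 47 pooled summits over the gene and its flanks. They make 0.713 per kb, against 0.255 per kb over all protein-coding genes. The pooled density was 0.929 per kb at vri and 0.711 per kb at cwo, so that of Pdp1 was not the highest. Many weak pooled peaks were thus called along Pdp1, and some of them rest on the same replicate peaks.

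cwo encodes the bHLH-Orange repressor that binds E-boxes, and lies on chromosome 3R at 10388258 to 10400752 on the plus strand (FBgn0259938). Its single reproducible peak, at 10390925 to 10391288, had a pooled signal of 635, rank 1271, with 380.5 in replicate 1 and 269 in replicate 2, and its summit lay in an intron at +2849. Without replicate 2, in the 6153 highest peaks of replicate 1, cwo had 3 summits, with its promoter among them. In the pooled list its promoter held only weaker peaks. A peak with its summit at +579 in the 5′ UTR had a pooled signal of 173, with 117 in replicate 1 and 61.8 in replicate 2. Another, at +116, had a pooled signal of 120.2, with 46.6 in replicate 1 and 70.6 in replicate 2. Both were seen in both replicates, and 15 pooled summits in all lay at cwo below the reproducible list.

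**Figure D2:**
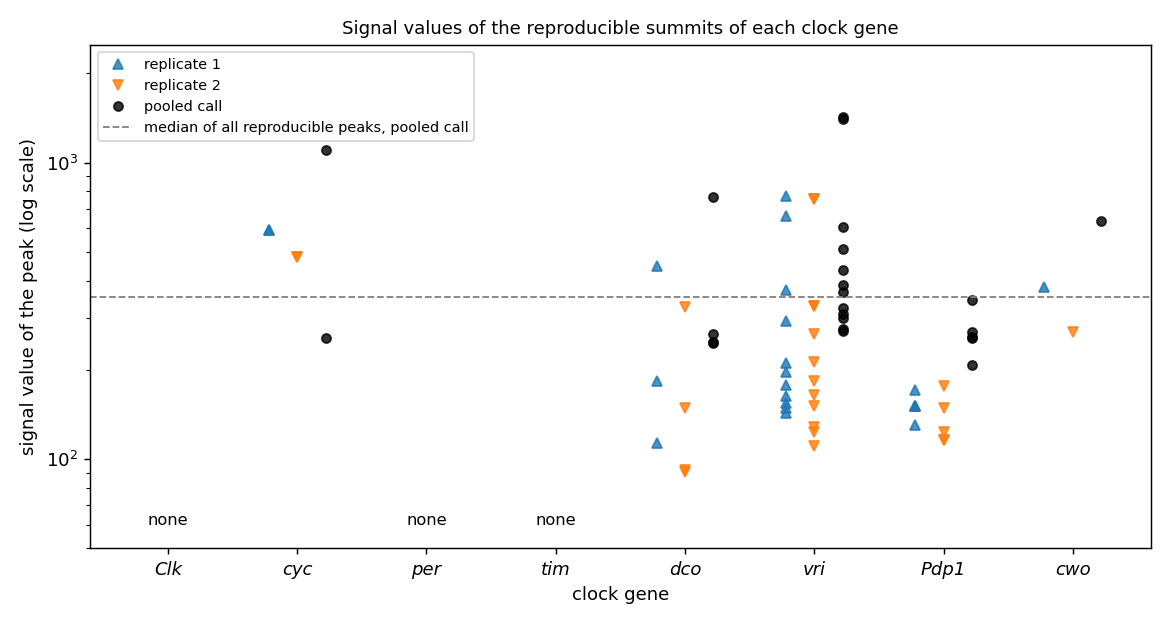
Signal value on a log axis of each reproducible peak of each clock gene in the pooled list (circles) and of the highest overlapping peak in replicate 1 and replicate 2 (triangles); the dashed line is the median of all 6153 reproducible peaks in the pooled list, 353. Pooled values above the line are at cyc, dco, vri and cwo, those of Pdp1 all lie under it, and Clk, per and tim have none.

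In the full pooled list, 7 of the 8 clock genes (87.5%) had a summit in or near the gene, and the share over all protein-coding genes was 78.8%. In the promoter, 6 of the 8 (75%) had a pooled summit, and the share over all was 56.1%. The genes added in the promoter were Clk, cyc and cwo. The list of replicate 1 had summits at 7 of the 8, with 79.4% over all protein-coding genes, and the list of replicate 2 likewise at 7 of the 8, with 79.6% over all. In each list the gene without a summit was per. By start rather than by gene, 6 of the 17 distinct starts (35.3%) had a reproducible promoter summit, against 31.5% of all protein-coding starts.

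The replicates shared most of the clock peaks. Of the 24 reproducible peaks, 22 (91.7%) were overlapped by a peak of both replicates, against 97.6% of all reproducible peaks. The reproducible list was made from the replicates, so this share is partly fixed by its making. When only the 6153 highest peaks of each replicate were counted, both overlapped 20 of 24 (83.3%), against 72.7% of all. The peaks without an overlapping replicate 1 peak were 1 at vri and 1 at dco, with pooled signals of 309.6 and 249. By signal, 10 of the 24 (41.7%) lay above the median of the list, and the median clock peak had 317, against 353 for all reproducible peaks.

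**Figure D3:**
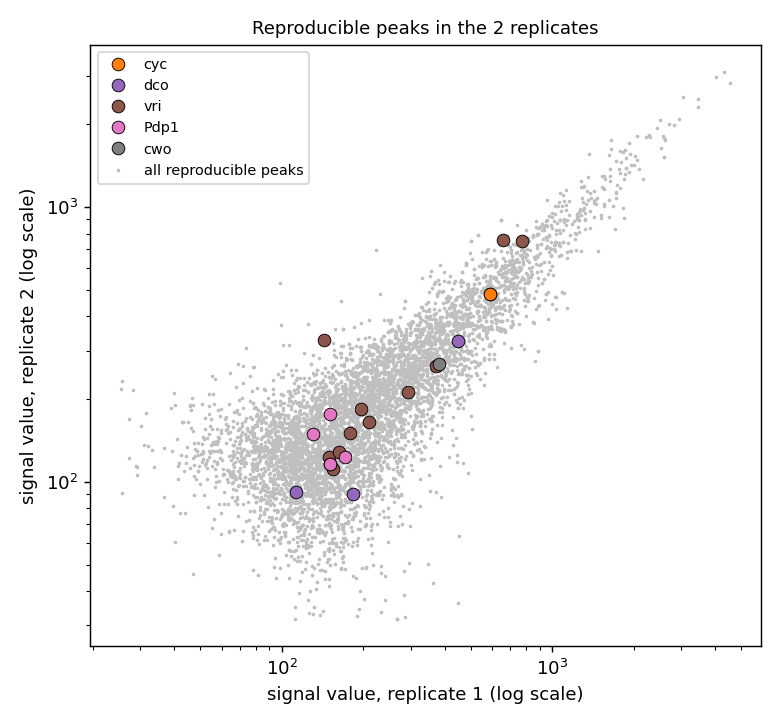
Signal value in replicate 2 against replicate 1, both on log axes, for the reproducible peaks of the clock genes that a peak of each replicate overlaps, coloured by gene. The pair of vri intronic peaks lies highest in both replicates, at 769.6 and 658 in replicate 1 and 754 and 755 in replicate 2, and neighbouring summits that share a replicate peak fall on the same point. The axes have different scales, so distance from the diagonal is not read.

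No reproducible clock summit lay in an exon of its clock gene, and exons of other genes were not looked at. Of the 24, 16 lay in introns, 7 upstream of the gene and 1 downstream. The G+C content of the 101-base windows had a median of 34.2% and ran between 23.8% and 54.5%, close to the median of 33.7% over all reproducible windows. The summit windows were thus AT-rich at the clock genes, much as in the whole list.

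Windows of 101 bases around the summits were searched on both strands for 3 kinds of motif. The E-box of CLK, CYC and CWO was searched as CACGTG, the site of VRI and PDP1 as TTATGTAA or TTACGTAA, and the core site of Cnc with its small Maf partner as TGACNNNGC. An E-box was present in 0 of 24 clock windows, which allows a share of up to 12.5% as 3 counts of 24 and up to 14.2% as the exact 95% limit, against 0.813% of all 6153 windows. The VRI and PDP1 site was likewise present in 0 of 24, against 1.28% of all windows. The Cnc-Maf core was present in 2 of 24 (8.33%, exact 95% interval 1.03 to 27%), against 168 of all windows (2.73%). Without replicate 1 the core was present in 0 clock windows, and without replicate 2 in 3. The interval and the limits cover counting error only, and the interval of the Cnc-Maf share includes the share over all windows. Such a match or its absence describes these letters in these windows and nothing more.

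The Cnc-Maf matches were at promoter peaks of vri and dco, chr2L:5306455-5306555 and chr3R:31061375-31061475 on the + strand of dm6, and are shown because the summit base itself falls inside the match in both. Capitals mark the match, which in vri peak 5 reads TGACTAAGC on the opposite strand.
vri peak 5: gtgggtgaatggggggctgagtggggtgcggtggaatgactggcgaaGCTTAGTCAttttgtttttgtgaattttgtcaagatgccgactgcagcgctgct
dco peak 2: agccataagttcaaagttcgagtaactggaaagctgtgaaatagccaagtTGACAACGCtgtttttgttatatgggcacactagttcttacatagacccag
Among all 168 windows with the core, the summit base lay inside it in 16 (9.52%). The peaks shown have pooled signals of 433 at vri and 265 at dco, which are not the highest of their genes. Both are 364 bp wide with the summit at their middle, as are most clock peaks. How exactly a summit is placed is not known. In the list without replicate 1, no clock summit window holds the core.

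E-boxes themselves were frequent before the clock gene starts and mostly outside the peaks. Within 1000 bp upstream, 7 of the 17 clock starts (41.2%) had a CACGTG, against 12% of all protein-coding starts. Some of these sites lie inside the gene, before an internal start, as in introns of vri (-974) and Pdp1 (-761). Those of per and tim are shown because both genes carry the site and lack a reproducible peak. Capitals mark the E-box in 30 bases of dm6, at chrX:2685038-2685067 on the + strand and chr2L:3507405-3507434 on the - strand, which begins at -530 of per and at -204 of a tim start. The tim site is also at +182 of the tim-RO start, in a 5′ UTR.
per E-box -530: aaagccgccgctCACGTGgcgaactgcgtg
tim E-box -204: acgttgtgattaCACGTGagccgatttccc
Over the clock genes and their flanks there were 53 E-boxes, 15 of them at cwo, 14 at Pdp1 and 11 at per. Reproducible peaks covered 1 of the 53 (1.89%), and they covered 3.67% of the bases searched. Pooled peaks covered 8 of the 53 (15.1%), of which 4 lay at Pdp1 and 4 at cwo, and they covered 18.3% of the bases. The closest lay 8 bp from a pooled summit of 107 at cwo. The share of E-boxes under peaks was thus lower than the share of bases under peaks, by few E-boxes.

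Among genes with a promoter summit, the clock genes did not stand out by signal. In the order of the highest promoter signal over 4449 protein-coding genes, vri stood at 2302, between fsd and CG10137, Pdp1 at 3613, between CG3588 and CG31021, and dco at 3671, next below Cdc14. Rounded to whole units, the neighbours named differ from the clock genes by at most 1, so the order among them is not resolved. The median of the highest promoter signals was 268 for the 3 clock genes, against 446 over all 4449 genes.

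A list of 27 further clock regulators, which act on the stability, modification or output of the core proteins, had promoter summits at 19 (70.4%), against 31.9% of all protein-coding genes. The highest signals were at brm (2494, a chromatin remodeller whose promoter is shared with Arl1), Eip75B (1098, a nuclear receptor), sgg (1009, a kinase of TIM), slmb (990.5, which directs PER to degradation), wdb (714, a phosphatase subunit) and tyf (587, a translation activator of per). Promoters are also shared at slmb, with CG5793, at wdb, with pins, and at tyf, with Tip60. There was no promoter summit at jet, CkIIalpha, Bdbt, lark, Mef2, Fer2, Pdf and Pdfr. The regulators include Pdf and Pdfr, the neuropeptide of clock neurons and its receptor, and the list was chosen by hand, so nothing particular to it is drawn from the share.

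The relatives of the clock genes by protein family differed among themselves in the same count, for which the share over all protein-coding genes was 31.9%. These short lists were also chosen by hand, and kay is in both the bZIP list and that of the regulators. Nothing particular to a family is drawn from its share. Of 9 other PAS genes, related to Clk and cyc, 5 (55.6%) had a promoter summit: tai (573), dysf (324), gce (276), tgo (238) and sima (219), and there was none at sim, trh, ss and Met. That of tai is shared with CG9586. Of 17 other bZIP genes, related to vri and Pdp1, 12 (70.6%) had one. The highest were at cnc itself (2133), Atf3 (2021), Xbp1 (1902), REPTOR (1483), Irbp18 (1237) and CrebB (1095), and that of Irbp18 is shared with APP-BP1. All were above the 433 of the vri promoter, while the highest vri peak, in an intron, had 1427. The line carries a tagged cnc, and what that adds to the peaks at cnc was not tested. There was none at Atf6, gt, slbo, tj and Atf-2. The 2 other casein kinase 1 genes looked at, gish (3242) and CkIalpha (582), each had one, above the 265 of the dco promoter. The highest dco peak, in an intron, had 764. Other genes of that family were not looked at. Of 7 bHLH-Orange genes related to cwo, 1 (14.3%) had one, E(spl)m7-HLH (505). There was none at h, dpn, Hey, E(spl)mbeta-HLH, E(spl)m8-HLH and Sidpn.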

How the data were processed

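Peak lists on dm6 were used as deposited; the lists on dm3 were not used. The reproducible and pooled lists and 1 list per replicate hold, per the labels and the deposited file lists, ENCODE peak calls. Which aligner, caller and reproducibility threshold were used, and how many reads, is not stated in those sources. The signal value of each peak is the authors' score, and each list also holds the authors' −log10 q-value, which was not used for any result. Coordinates are 1-based.

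Genes and starts came from Ensembl release 115, and sequence from the RefSeq Release 6 genome, whose chromosomes have the same lengths. Summits were assigned within 5000 bp of a gene and 1000 bp of a start, a summit being counted for every gene in range, and motifs were searched within 50 bp of summits. A replicate's value for a peak is the highest signal of its peaks that overlap it by at least 1 bp. The gene h was matched as hry and bdbt as Bdbt. Python 3.11.15, numpy 2.4.6 and scipy 1.17.1 were used. The motif search was tested on made-up sequences, and the naming of gene features on positions in a made-up gene. With 1 group there was no contrast and no test, so counts stand beside the share over all protein-coding genes. The genes and lists were chosen with earlier results of these data known. The text names all 8 clock genes, up to 8 reproducible peaks of a gene, and its 2 highest weaker pooled peaks. It also names up to 6 members of each other list by promoter signal and its members without a promoter peak. The genes next to a clock gene in that order are named, apart from the one next below dco.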

Additional observations from a re-analysis of the deposited data

How the results depend on the processing

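The peak set mattered most for the counts. With only the reproducible peaks above the median signal, 1 clock gene had a promoter summit (3 in the full list) and 12 clock regulators did (19). There were then 10 clock summits (24), 10 with peaks of both replicates (22) and 1 with a Cnc-Maf core (2). This cut keeps 3076 of the 6153 peaks (50%) by its making. The share of all protein-coding genes under it was not counted, so the drops are not read as a trait of the clock genes. With an overlap of at least 50% of both peaks, 13 of the 24 summits were overlapped in both replicates. The share of all reproducible peaks under that rule was not counted. Leaving out a replicate means taking the 6153 highest peaks of the other replicate's list. Clock genes with a promoter summit then numbered 2 without replicate 1 (vri and Pdp1) and 4 without replicate 2 (vri, Pdp1, cwo and dco), so the call for dco was lost without replicate 1 and cwo was gained without replicate 2. The regulators ranged between 18 and 20, the clock summits between 23 and 26, and windows with a Cnc-Maf core between 0 and 3, with 0 without replicate 1. The same 5 genes had summits in or near them without either replicate, with 13 at vri and 6 at Pdp1 in each case. Leaving out a replicate moved dco (4 in the full list) to 2 without replicate 1, cwo (1) to 3 without replicate 2, and cyc (2) to 1 without either. Above the median signal, vri kept 7 of 12, dco 1 of 4, cyc 1 of 2 and Pdp1 0 of 5. The E-box and the VRI and PDP1 site had 0 windows either way. Other promoter distances, flanks and windows, and assignment to the nearest start, moved none of the counts over all clock genes or regulators by over 1.5 times. Of single genes, within 1000 bp or by nearest start cyc had 0 and Pdp1 3, and within 10000 bp Clk had 2, cyc 4 and cwo 2. No paired analysis was possible because there is 1 group. The number of reads is unknown, so absence of a peak at per, tim or Clk may not be read as absence of Cnc there.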

Other observations

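Just outside the 5 kb limit, 5 further reproducible summits lay within 10 kb of a clock gene, and none of these was at per or tim. Upstream of Clk, summits at 6831 bp (signal 306) and 7954 bp (signal 510.1) had the Clk start as their nearest protein-coding start. Downstream of cyc, summits at 6281 bp (signal 228) and 6495 bp (signal 301) were nearest to Kap-alpha1, an importin gene. Downstream of cwo, a summit at 6598 bp (signal 326) was nearest to CG6325. Of the summits inside the limit, the farthest from its gene was the Pdp1 summit 2813 bp upstream (signal 343).

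The light receptor gene cry, which acts on TIM and is among the 27 regulators, had a promoter peak with a pooled signal of 492, whose summit lay at -225. The peak had 236 in replicate 1 and 238 in replicate 2, on the separate scales of those lists.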
